A study of Mus musculus with 10 samples.

Results

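The matrix metalloproteinases (Mmp genes), the ADAMTS proteases (Adamts genes) and the tissue inhibitors of metalloproteinases (Timp genes) were followed through mouse reprogramming. Members were set by symbol, as every gene of the expression table named Mmp, Adamts or Timp with a number. Of the 18901 listed genes 45 met this rule (22 Mmp, 19 Adamts and 4 Timp genes). The rule was chosen with earlier results of these data known, so the shares set beside all genes are descriptive. Poly(A) RNA was sequenced from 5 cell lines at 2 passages each, all from a cross of the mouse strains mf1 and 129. Oct4/GFP MEF, mouse embryonic fibroblasts that carry a green fluorescent reporter of Oct4, were grown in DMEM with serum and sequenced at passages 2 and 4. The other 4 lines were made from such fibroblasts with retroviruses for Oct4, Sox2, Klf4 and c-Myc, were grown in medium with serum replacement and LIF, and were sequenced at passages 5 and 25. They are pre-iPS cells, which are partially reprogrammed and neither reactivate the Oct4/GFP locus nor silence the viral transgenes, a 'control' iPS clone, and 'rNetrin-1-derived' iPS clones 1 and 2, obtained with recombinant Netrin-1, a secreted guidance cue. Each line is 1 clone or culture, so its 2 libraries are passages of the same cells, and p-values below measure the spread between passages. The study's methods state that pre-iPS and iPS cells were kept on gelatin or on irradiated MEF, and which of these was used for these libraries is not given in the sources used here.

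MMPs and ADAMTS enzymes are zinc proteases that act on the extracellular matrix. Most MMPs are secreted as inactive precursors, membrane-type MMPs stay on the cell surface, and the 2 gelatinases cleave denatured collagen and basement membrane. Among the ADAMTS enzymes some cut the large proteoglycans aggrecan and versican and others trim procollagens, while TIMPs bind and block the active sites of these proteases. Fibroblasts are known as a main source of matrix and of the enzymes that remodel it, and cells that become pluripotent lose the fibroblast programme.

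The libraries held 38110410 to 52946857 reads on genes, and the table gives normalised read counts in which 1 read was worth 0.888 to 1.18. A difference was called when the adjusted p from limma (Benjamini-Hochberg over all 17075 genes tested) was under 0.05 and the log2 difference was at least 1. Of the 45 members, 40 passed the filter on low values and were tested. The 2 MEF libraries differed from each other far less than any other pair. Their mean chi-square per gene (1 when only counting noise separates a pair) was 2.76, against 36.3 to 50.9 for the other lines, and 1.06 for genes with under 200 reads. MEF passages 2 and 4 are therefore close to 1 sample, and the value with both averaged into 1 sample is given where it ends a call. Cell type markers followed the labels. All 10 fibroblast markers were higher in MEF than in the iPS lines (median log2 difference 6.35), all 8 pluripotency markers were lower there (median −8.54), and 6 of these 8 were lower in pre-iPS cells than in the iPS lines. MEF also held macrophage transcripts. The summed level of 9 macrophage markers was 13819 to 13964 in MEF, 1159 to 2028 in pre-iPS and 690 to 1588 in iPS libraries. Of the other lists, all 4 smooth muscle markers were higher in MEF than in the iPS lines, primitive endoderm markers split into 4 higher and 4 lower, and endothelial markers into 1 higher and 2 lower.

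**Figure D1:**
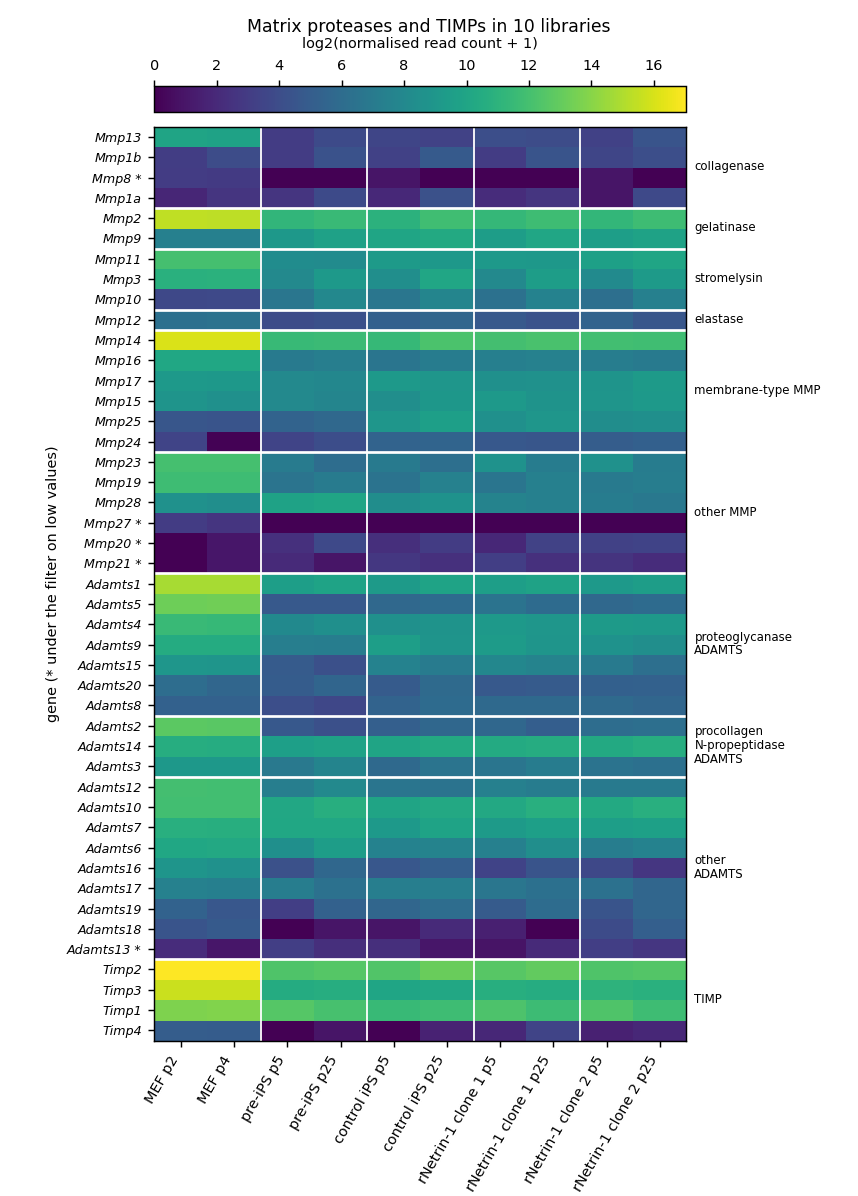
Levels of the 45 members (rows, grouped by role) in the 10 libraries (columns), as log2(normalised read count + 1). MEF libraries are brightest for Timp2, Mmp14, Timp3, Mmp2 and Adamts1, while Mmp9, Mmp10, Mmp24 and Mmp25 are darkest in MEF.

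Compared per kb of exon, the TIMPs were the most abundant family in every library. In MEF the summed level was 56870 and 56171 normalised reads per kb for the 4 Timp genes, 30571 and 30103 for the 22 Mmp genes and 9684 and 9665 for the 19 Adamts genes. In the 8 pre-iPS and iPS libraries the Timp sum was 8.51 to 14.8% of the MEF mean, the Mmp sum 6.91 to 12.3% and the Adamts sum 7.80 to 10.97%. The 3 families thus had similar shares of their MEF level, and the ratio of summed Timp to summed Mmp level was 1.86 and 1.87 in MEF and 1.69 to 3.99 in the other libraries.

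The member with the highest level per kb was Timp2 in MEF and Timp1 in every pre-iPS and iPS library. Timp2, which also takes part in the activation of pro-MMP2 on the cell surface, made up 61.1 and 60.1% of the summed Timp level in MEF and 16.2 to 37.5% elsewhere. Timp1, an inhibitor encoded on the X chromosome, made up 27.7 and 28.6% in MEF and 60.3 to 81.8% elsewhere. The leading inhibitor therefore differed between MEF and all reprogrammed libraries. Among proteases, Mmp2 (gelatinase A) was the third member per kb of summed exons in each of the 10 libraries. With Mmp14, the membrane-type MMP that activates it, Mmp2 made up 80.1 and 79.8% of the summed Mmp level in MEF and 46.1 to 56.5% in the other libraries. The rank of Mmp2 and these shares depend on the length used. Mmp14 has 5.96 kb of exons but a longest transcript of 3.238 kb, against 3.371 and 3.078 kb for Mmp2.

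**Figure D2:**
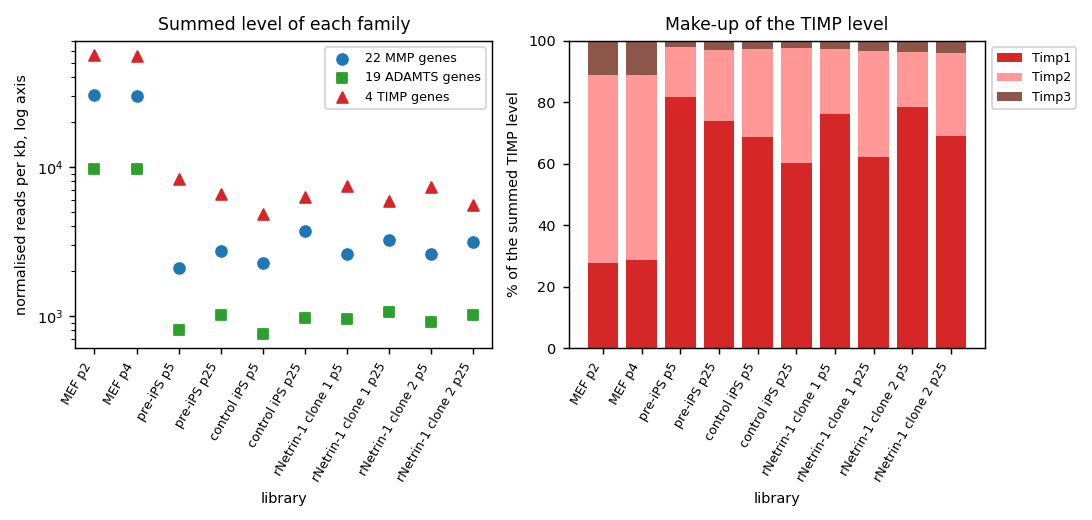
Left, summed level of each family in each library, in normalised reads per kb of exon on a log axis. Right, share of the summed Timp level taken by Timp1, Timp2 and Timp3 (the Timp4 share is too small to draw). Timp1 takes 60.3 to 81.8% outside MEF.

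The first comparison asked which members separate fibroblasts from fully reprogrammed cells. Against the 6 iPS libraries, 26 members were higher in MEF (65% of the 40 tested, against 21.6% of all genes) and 4 were lower (10%, against 26.6% of all genes). The median log2 difference was 1.93 over the members and −0.09 over all genes. By family, 9 Mmp genes were higher and 4 lower of 18 tested, 13 Adamts genes were higher and none lower of 18, and all 4 Timp genes were higher. The libraries of the 2 groups did not overlap for 25 of the 26 higher members (96.2%, against 99.1% of all genes called higher) and for the 4 lower ones (97.6% of all genes called lower), so the lack of overlap is common to called genes. For such a gene the exact two-sided permutation test of 2 against 6 libraries gives its smallest possible p, 0.0357.

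All 4 inhibitors were higher in MEF. Timp3, which is bound to the matrix, was at 51786 and 51623 normalised reads in MEF and at 1056, 1579 and 2111 (lowest, median and highest) in the iPS libraries, a log2 difference of 5.10 ± 0.08 (SE). Timp2 was at 135338 and 131489 in MEF and at 5135, 5997 and 9210 in the iPS libraries, a log2 difference of 4.37 ± 0.18. No iPS library came near either MEF library for these 2 genes. Timp1 was at 14002 and 14277 against 2927, 3397 and 5114, a log2 difference of 1.91 ± 0.21, and Timp4 was close to the detection limit in iPS cells, at 31.9 and 29.6 against 0, 2.37 and 10.3. The adjusted p from limma was 2.23e-09 for Timp3, 1.1e-07 for Timp2, 3.09e-05 for Timp1 and 0.000707 for Timp4.

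The largest differences among the members were those of the proteoglycanase Adamts5 and the procollagen N-propeptidase Adamts2. Adamts5, a major aggrecanase, was at 10185 and 10540 normalised reads in MEF and at 52.2, 60.5 and 87.9 in the iPS libraries, a log2 difference of 7.37 ± 0.18. Adamts1, its neighbour 53.1 kb away on chromosome 16 and also a versican-cleaving enzyme, was at 29111 and 29362 in MEF and at 597, 731 and 929 in iPS libraries, a log2 difference of 5.31 ± 0.16. Adamts2, which removes the amino-terminal propeptide of fibrillar procollagens, was at 6837 and 6536 against 33.9, 50.8 and 75.3, a log2 difference of 7.04 ± 0.24. Each of these genes was at 0.25 to 3.26% of its MEF mean in every pre-iPS and iPS library. Of the 7 proteoglycanases 5 were higher in MEF, from Adamts9 at 1.54 ± 0.19 to Adamts5, while Adamts8 and Adamts20 were not called. Of the 3 N-propeptidases Adamts14 was not called, at 1556 and 1497 in MEF against 1004, 1347 and 1573 in iPS libraries. Adamts12, an enzyme linked to cartilage matrix, was at 3974 and 3824 against 88.7, 127 and 174, a log2 difference of 4.97 ± 0.19.

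The MMPs did not move as 1 group. Mmp13 (collagenase 3) was at 1009 and 915 in MEF and at 8.93, 12.5 and 20.6 in the iPS libraries, a log2 difference of 6.13 ± 0.35, whereas the other tested collagenases, Mmp1a and Mmp1b, were at most at 17.7 and 27.1 normalised reads in any library and were not called. Mmp2 was at 43175 and 42490 against 2004, 3019 and 3656, and Mmp14 was at 69554 and 68081 against 2699, 3922 and 4671, log2 differences of 3.90 ± 0.23 and 4.17 ± 0.17. Per kb these were the 2 most abundant proteases of MEF, and the libraries of the groups did not overlap. Mmp11, Mmp16, Mmp19 and Mmp23 were also higher in MEF, by 2.59 to 4.67 on the log2 scale. Of the Mmp19 exon sequence, 22.3% overlaps the opposite-strand gene Tmem198b, at 534 to 1623 normalised reads, in libraries that do not mark strand. Mmp3 (stromelysin 1) was at 1831 and 1912 in MEF and at 263, 492 and 1075 in iPS libraries; its log2 difference of 1.96 ± 0.55 (adjusted p from limma 0.00986) was no longer called when both MEF libraries were averaged to 1 sample (adjusted p 0.0578) or either was left out.

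A set of 4 MMPs ran the other way. Mmp9 (gelatinase B) was at 173 and 171 normalised reads in MEF and at 733, 962 and 1338 in the iPS libraries, a log2 difference of −2.46 ± 0.21 (MEF less iPS lines). Mmp25, a membrane-type MMP held by a lipid anchor, was at 22.4 and 20.1 against 325, 429 and 781, a log2 difference of −4.35 ± 0.21. Both enzymes were thus higher in every iPS library than in either MEF library, and the 2 gelatinases had opposite signs. Mmp10 (stromelysin 2) was at 11.9 and 12.7 against 72.4, 135 and 211, and Mmp24, another membrane-type MMP, was at 10.2 and 0.0668 against 22.6, 33.8 and 44.8. Their log2 differences were −3.25 ± 0.50 and −3.29 ± 0.72. For Mmp24 the 2 MEF libraries held 9 and 0 reads, so its fitted difference rests on few reads and on the pseudocount. Of the Mmp24 exon sequence, 13.6% overlaps the opposite-strand gene BC029722, at 386 to 1236 normalised reads, and these libraries do not mark strand.

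**Figure D3:**
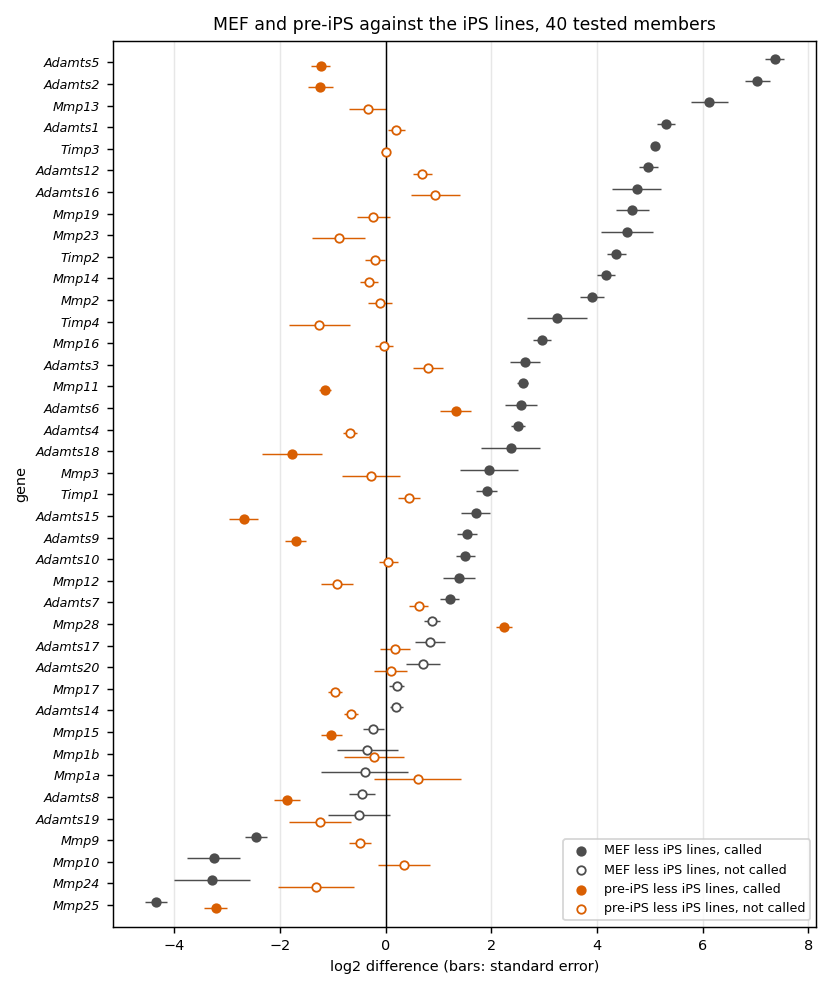
Log2 difference of each of the 40 tested members, MEF less iPS lines (grey) and pre-iPS less iPS lines (orange), with standard errors; filled points were called. Grey points reach 7.37 for Adamts5 and −4.35 for Mmp25, and the 2 filled orange points on the right are Adamts6 and Mmp28.

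Fibroblast markers were not absent from the iPS and pre-iPS libraries. Across these 8 libraries they were at 0.0516 to 0.207% of the MEF mean for Lum, 0.441 to 0.998% for Col1a1 and 7.25 to 11.1% for Thy1, and at 10.96 to 22.8% for Pdgfra. In the same libraries Mmp2 was at 4.68 to 8.54% of its MEF mean, Mmp14 at 3.92 to 6.79%, Timp2 at 3.85 to 6.90% and Timp1 at 20.7 to 43.0%, while Adamts5 was at 0.25 to 0.85%. Whether such RNA came from the cells of the line or from irradiated MEF beneath them was not tested, and fewer cells of a type cannot be told apart from less RNA per cell in bulk samples. Mmp12 (macrophage elastase) and the neutrophil collagenase Mmp8 are known from blood cells. Mmp12 was at 77.4 and 86.4 in MEF and at 18.5, 31.2 and 49.0 in the iPS libraries, a log2 difference of 1.39 ± 0.31, and 8 of the 9 macrophage markers were also higher in MEF. In the other libraries 6 of these 8 were at most at 7.47% of their MEF mean, Itgam and Cd14 were at 5.97 to 21.4%, and Cd68, which was not called, was at 47.7 to 211%. The part of macrophages in the Mmp12 level was not tested.

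The next comparison asked how partially reprogrammed cells differ from iPS cells. Against the 6 iPS libraries, 2 members were higher in pre-iPS cells (5% of those tested, against 4.71% of all genes) and 9 were lower (22.5%, against 11.6% of all genes). The median log2 difference was −0.30 over the members and 0.001 over all genes. None of the 4 Timp genes was called, with log2 differences from −1.26 ± 0.57 for Timp4 to 0.44 ± 0.21 for Timp1. The split depended on scaling: with quantile normalisation 4 members were higher and 5 lower, and all genes moved in the same way, from 4.71% to 8.69% higher and from 11.6% to 8.35% lower. With passage as a replicate block over the 8 pre-iPS and iPS libraries 14 members were called, 2 higher and 12 lower, among them all 11 of the main test.

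Mmp28 and Adamts6 were the 2 members called as higher. Adamts7 was also above every iPS library, at 1144 and 1133 against 569 to 944, but its log2 difference of 0.63 ± 0.18 was under the 2-fold limit (adjusted p from limma 0.0223). Mmp28 (epilysin), an MMP first known from skin and testis, was at 903 and 1018 normalised reads in pre-iPS cells and at 113, 181 and 413 in the iPS libraries, a log2 difference of 2.24 ± 0.15 (adjusted p from limma 1.91e-05). It was also above both MEF libraries, at 394 and 350. The gene lies on chromosome 11, and 12.03% of its exon sequence overlaps the opposite-strand gene 1700020L24Rik, whose level was 393 and 396 in pre-iPS and 52.9 to 147 in iPS libraries, a log2 difference of 2.19 ± 0.15. These libraries do not mark strand, so reads from the shared stretch cannot be assigned to either gene. Adamts6 was at 354 and 703 in pre-iPS cells against 152, 189 and 335 in iPS libraries, a log2 difference of 1.33 ± 0.30. Without pre-iPS passage 25 the Adamts6 difference was 0.83 and was not called.

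Proteoglycanases were the role group with most lower members, 4 of 7, where 11.6% of all genes were lower. The median was −1.23 over this small group and 0.001 over all genes. Adamts15, an aggrecan-cleaving enzyme, was at 28.6 and 17.3 normalised reads in pre-iPS cells, at 72.6, 164 and 234 in the iPS libraries and at 494 and 479 in MEF. Adamts8, 20.1 kb away on chromosome 9, was at 16.3 and 11.5, against 41.6, 56.2 and 60.5 in iPS libraries and 38.0 and 39.0 in MEF. For both neighbours the pre-iPS libraries were the lowest of the 10, with log2 differences from the iPS lines of −2.68 ± 0.27 and −1.87 ± 0.24. Adamts9, a versican-cleaving enzyme, was at 153 and 149 against 339, 465 and 739, a log2 difference of −1.70 ± 0.19. Adamts5 was at 25.5 and 25.9 in pre-iPS cells and Adamts2 at 24.5 and 17.3, log2 differences of −1.23 ± 0.18 and −1.24 ± 0.24. For these last 2 genes every pre-iPS and iPS library was far below both MEF libraries, and neither difference was called under quantile normalisation. Without pre-iPS passage 25 the Adamts2 difference was not called either.

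The largest decrease was that of Mmp25, at 42.8 and 52.8 normalised reads in pre-iPS cells against 325 to 781 in the iPS libraries, a log2 difference of −3.22 ± 0.21 (adjusted p from limma 1.62e-05). MEF, pre-iPS and iPS libraries formed 3 separate ranges for this gene. Mmp9 did not show the same step, at 534 and 860 in pre-iPS cells. At each passage this was below the 3 iPS libraries of that passage (733 to 1040 at passage 5, 884 to 1338 at passage 25), and the log2 difference of −0.49 ± 0.21 was not called. Mmp11 and Mmp15 were lower in pre-iPS cells, with log2 differences of −1.15 ± 0.11 and −1.03 ± 0.20. The Mmp15 call was lost under quantile normalisation (−0.96) and without clone 1 passage 5, 'control' passage 25, clone 2 passage 25 or pre-iPS passage 25 (highest value −0.87), each time at the 2-fold limit. Adamts18 was called as lower, but it held 0 and 1 reads in pre-iPS cells, its libraries overlapped those of the iPS lines, and it was called in 8 of 21 alternatives. With MEF averaged to 1 sample its adjusted p was 0.0561.

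**Figure D4:**
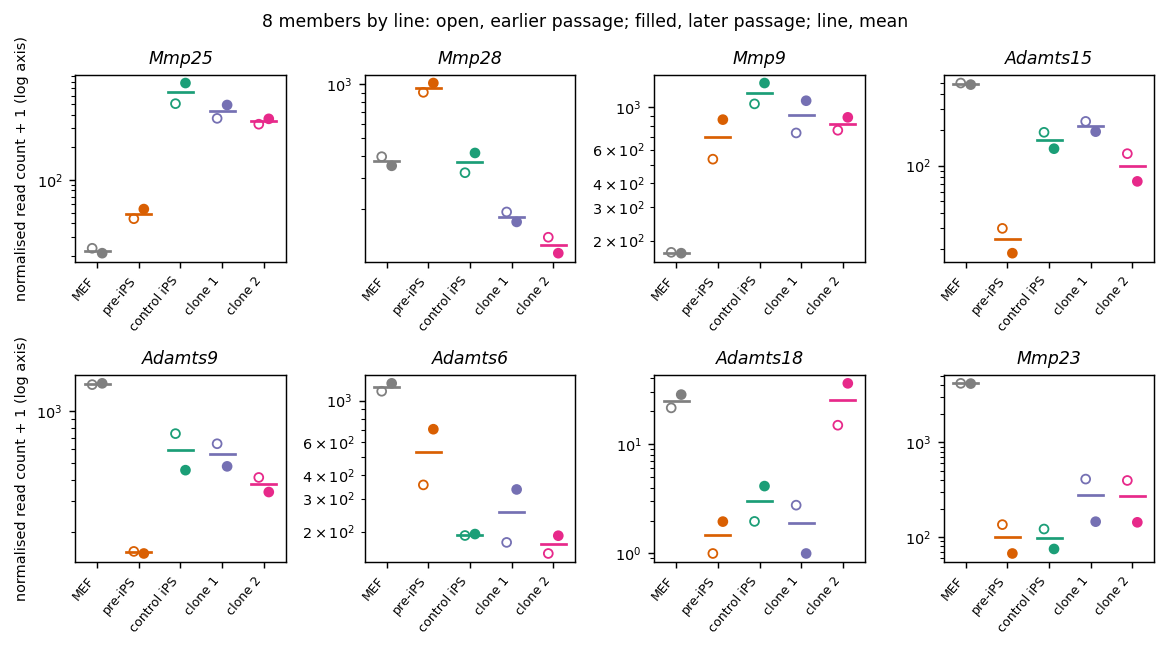
Normalised read count + 1 (log axis) of 8 members in each library, by line; open points are the earlier passage, filled points the later one, and lines the mean. Pre-iPS cells sit lowest of all lines for Adamts15 and highest for Mmp28, and Adamts18 is highest in MEF and clone 2.

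Between pre-iPS cells and MEF, 27 members were lower in pre-iPS cells (67.5% of those tested, against 20.9% of all genes) and 4 were higher (10%, against 22.4% of all genes). This comparison shares the MEF libraries with the first and the pre-iPS libraries with the second, so its values follow from theirs. The 4 higher members were Mmp10 by 3.60 ± 0.61 on the log2 scale, Mmp9 by 1.97 ± 0.26, Mmp28 by 1.37 ± 0.19 and Mmp25 by 1.13 ± 0.26. All 4 are MMPs, which is 22.2% of the 18 tested Mmp genes and close to the 22.4% of all genes that were higher. Scaling to 4 housekeeping genes, which moved the median of all genes from 0.06 to −0.34, left the last 2 under the 2-fold limit, and Mmp25 was not called either under quantile normalisation or without pre-iPS passage 25 (0.98). The largest decreases were those of Adamts5 (−8.60 ± 0.22), Adamts2 (−8.28 ± 0.29), Mmp13 (−6.47 ± 0.43), Mmp23 (−5.46 ± 0.61), Adamts1 (−5.11 ± 0.20) and Timp3 (−5.10 ± 0.10). All 4 Timp genes were lower in pre-iPS cells, Timp1 by the smallest margin (−1.47 ± 0.25). With MEF averaged to 1 sample, Adamts6 (−1.24, adjusted p from limma 0.0586) and Mmp3 (−2.23, 0.0636) were no longer called as lower. With 2 libraries on each side an exact permutation test cannot go below 0.333.

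The clone comparisons asked whether iPS cells obtained with rNetrin-1 differ from the 'control' clone. Of the 40 members, limma called 0 as higher in the 4 rNetrin-1 libraries (0.990% of all genes were; 8 members at an unadjusted p under 0.05, 0 by edgeR or DESeq2) and 1 as lower (1.12% of all genes were). That gene was Mmp28, at 320 and 413 normalised reads in 'control' iPS cells, 193 and 169 in clone 1 and 139 and 113 in clone 2. Each rNetrin-1 library was below each 'control' library, with a log2 difference of −1.27 ± 0.16 (adjusted p from limma 0.006; exact two-sided permutation p 0.0667, the smallest that 4 against 2 libraries allow). Its overlapping neighbour 1700020L24Rik was also called as lower, at 127 and 147 in 'control' and at 52.9 to 86.2 in the clones (adjusted p from limma 0.0154). Without 'control' passage 25 the adjusted p was 0.061, with only the iPS lines in the fit it was 0.0601, and in neither was Mmp28 called. Timp3 was at 1056 and 1167 in 'control' cells and at 1529 to 2111 in the clones, a log2 difference of 0.66 ± 0.09, under the 2-fold limit at an adjusted p of 0.00693. With passage as a replicate block, 3 members were called, Mmp28, Adamts17 and Mmp23. With 1 'control' clone, treatment and clone cannot be told apart.

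Clone 2 differed from clone 1 in 1 member of 40, which was higher (0.714% of all genes were higher and 0.252% lower). Adamts18, an orphan ADAMTS enzyme, was at 13.9 and 34.9 normalised reads in clone 2, at 1.77 and 0 in clone 1, at 0.964 and 3.13 in the 'control' clone and at 20.4 and 27.4 in MEF. The clone 2 libraries lay on either side of the MEF values, and those of the other iPS lines lay below them. The recovered reads were 53 in clone 2 and 2 in clone 1, a ratio of 25.9 per read sequenced (95% exact interval 6.82 to 219, counting error only). The fitted log2 difference of 3.80 ± 0.69 had an adjusted p of 0.0401 from limma (0.0898 with MEF averaged to 1 sample), and it was called in 8 of 21 alternatives. With 2 libraries a side the exact permutation p was 0.333, the smallest possible, and the count of members called was 2 with passage as a replicate block.

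Long culture was compared as passage 25 against passage 5 within the 4 reprogrammed lines. Each line had 1 library at each passage. Time in culture therefore cannot be told apart from any other difference shared by the libraries of a passage. Of the 40 members 5 were higher at passage 25 (12.5%, against 0.398% of all genes) and 1 was lower (2.5%, against 1.29% of all genes). The 5 higher were Mmp3, Mmp10, Mmp1a, Mmp1b and Adamts19, and the lower one was Mmp23. All 6 moved the same way in each of the 4 lines, for which the exact sign-flip test over 4 pairs gives p = 0.125, its smallest value. The calls were made on these same within-line differences, so the shared direction is not separate evidence. In all, 16 members (40%, against 15.1% of all genes tested) were higher at passage 25 in 4 of 4 lines, and 4 (10%, against 20.9%) were lower in 4 of 4.

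Mmp3, Mmp10, Mmp1a and Mmp1b belong to 1 gene cluster. The cluster holds 10 Mmp genes within 427 kb of chromosome 9 (GRCm38, from chr9:7272514-7283331 for Mmp13 to chr9:7692090-7699585 for Mmp7), in the order Mmp13, Mmp12, Mmp1b, Mmp3, Mmp1a, Mmp10, Mmp8, Mmp27, Mmp20 and Mmp7. Mmp7 is not in the table, and Mmp8, Mmp27 and Mmp20 were under the filter. On few reads, Mmp20 was also higher at passage 25 in each line, at 2.65 to 8.93 at passage 5 and 7.30 to 12.5 at passage 25. Without the filter its log2 difference of 0.95 was not called (adjusted p from limma 0.128). The 4 genes called as higher at passage 25 are consecutive in the order above. The 100 bases before their RefSeq starts (RefSeq, GRCm38.p6, 5′ to 3′ on the strand of the gene) are shown with those of Mmp13 and Mmp12 because these 6 tested neighbours share letters there. For Mmp12 this holds only at the second of its 2 RefSeq starts, and the 100 bases before the first hold neither motif below. Capitals mark the AP-1 motif TGACTCA or its reverse complement TGAGTCA (both strands searched) and the TATA motif TATAAA (gene strand only), which nowhere overlap.
Mmp13, chr9:7272414-7272513, plus strand: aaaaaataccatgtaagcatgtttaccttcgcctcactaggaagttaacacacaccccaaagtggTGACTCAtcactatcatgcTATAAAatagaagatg
Mmp12 (second of 2 RefSeq starts), chr9:7347274-7347373, plus strand: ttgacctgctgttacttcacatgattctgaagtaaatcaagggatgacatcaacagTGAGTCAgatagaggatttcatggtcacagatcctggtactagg
Mmp1b, chr9:7388027-7388126, minus strand: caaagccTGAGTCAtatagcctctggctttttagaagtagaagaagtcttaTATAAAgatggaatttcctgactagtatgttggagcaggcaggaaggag
Mmp3, chr9:7445722-7445821, plus strand: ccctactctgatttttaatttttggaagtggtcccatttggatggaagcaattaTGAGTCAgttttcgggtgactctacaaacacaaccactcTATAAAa
Mmp1a, chr9:7464041-7464140, plus strand: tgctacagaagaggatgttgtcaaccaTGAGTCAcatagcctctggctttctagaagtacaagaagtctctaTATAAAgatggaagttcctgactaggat
Mmp10, chr9:7502242-7502341, plus strand: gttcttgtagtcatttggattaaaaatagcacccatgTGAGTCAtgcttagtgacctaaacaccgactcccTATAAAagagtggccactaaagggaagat

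A gene was counted if any of its RefSeq promoters held the letters in the 250 bases before the start. The AP-1 letters stood in 7 of the 10 cluster genes and in 0 of the 22 other genes of these families with a RefSeq promoter. Of all 27025 genes with a promoter, 5.16% held them. The TATA letters stood in 7 of the 10 cluster genes and in 2 of the 22 others, against 8.94% of all genes. The GC box letters GGGCGG (both strands) stood in 0 of the 10 cluster genes and in 16 of the 22 others, against 35.4% of all genes. In all, 32 genes, being 31 of the 45 members and Mmp7, matched a RefSeq promoter. A match of letters is a description of the sequence only. The AP-1 letters did not separate the 4 genes that rose from Mmp13, which holds them 35 bases before the start. Mmp12 holds them 44 bases before its second RefSeq start but not before its first.

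Mmp3, whose product cleaves many matrix proteins and activates other MMPs, was at 346, 263, 281 and 261 normalised reads at passage 5 in 'control', clone 1, clone 2 and pre-iPS cells, and at 1075, 708, 637 and 607 at passage 25. Mmp10 was at 101, 79.9, 72.4 and 104 at passage 5 and at 211, 189, 169 and 245 at passage 25, in the same order. Every passage 25 library lay above every passage 5 library for both stromelysins, with log2 differences of 1.36 ± 0.11 and 1.18 ± 0.13 (adjusted p from limma 0.00133 and 0.00425). These genes were named because they were called on the same values, so the separation is not separate evidence. Both were called without any 1 library and in the iPS lines alone. Mmp1a and Mmp1b rose by 1.68 ± 0.43 and 1.18 ± 0.27, but they held 70 and 138 reads over all 10 libraries, are close copies between which reads can be split, and were called in 4 and 8 of 18 alternatives. Exons of Mmp1b and Mmp12 also share 157 bases on opposite strands. Mmp12 and Mmp13 at the other end of the cluster were higher at passage 25 in 2 of 4 lines each, with log2 differences of −0.18 ± 0.29 and 0.41 ± 0.32.

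**Figure D5:**
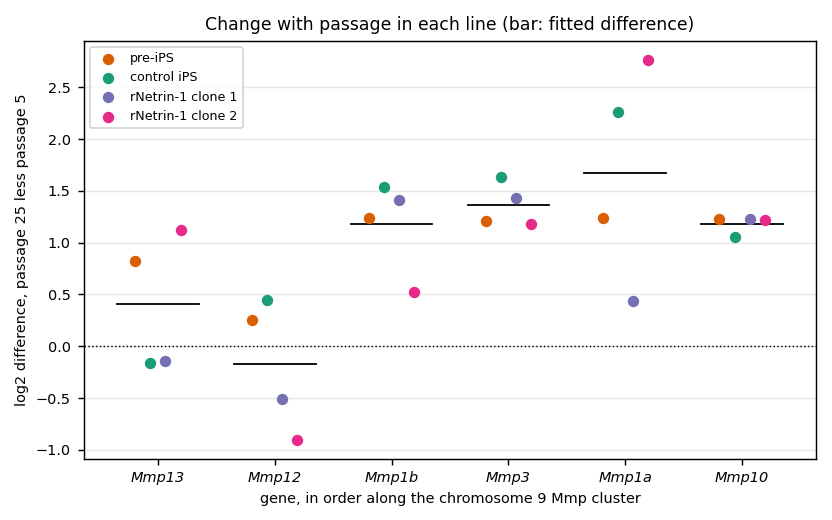
Log2 difference between passage 25 and passage 5 (vertical axis) for the 6 tested genes of the chromosome 9 Mmp cluster, in gene order; points are the 4 lines and bars the fitted difference. Points of Mmp1b, Mmp3, Mmp1a and Mmp10 lie above 0 in all 4 lines, those of Mmp13 and Mmp12 on both sides.

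Outside the cluster, Mmp23 fell with passage. This membrane-bound MMP was at 121, 409, 396 and 135 normalised reads at passage 5 in 'control', clone 1, clone 2 and pre-iPS cells and at 74.0, 145, 142 and 66.2 at passage 25, a log2 difference of −1.17 ± 0.17. Without either clone 1 library, or in the iPS lines alone, it was not called. Adamts19, an orphan ADAMTS enzyme on chromosome 18, was at 49.3, 29.3, 20.8 and 8.16 at passage 5 and at 68.8, 64.7, 49.3 and 37.4 at passage 25, a log2 difference of 1.22 ± 0.28 that was lost in the iPS lines alone and without any library of clone 1, clone 2 or pre-iPS cells. Smaller changes passed the adjusted p but not the 2-fold limit for Mmp2 (0.53 ± 0.09), Mmp9 (0.46 ± 0.09), Adamts10 (0.42 ± 0.06) and Adamts1 (0.35 ± 0.09). Of the Timp genes, Timp2 was higher at passage 25 in 4 of 4 lines and Timp1 in 1 of 4, with log2 differences of 0.38 ± 0.10 and −0.38 ± 0.13, neither called. No fibroblast marker was called in this comparison (median −0.02), while 2 of 4 smooth muscle markers (Acta2 at −1.40 and Tagln at −1.33), 2 of 9 macrophage markers (Csf1r at −1.48 and Cd68 at −1.07), 1 of 4 endothelial markers (Flt1 at −2.03) and 1 of 8 primitive endoderm markers (Sparc) fell. The part of cell mixture in these changes was not tested. The passage change of pre-iPS cells did not differ from that of the iPS lines beyond the threshold in limma for any member (0 of 40, with 0 at an unadjusted p under 0.05). In the same test 0 of all genes passed the threshold, so it cannot tell whether the members changed alike in pre-iPS and iPS cells.

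Genes that act with these proteases showed how the system around them stood. Of 22 tested activators, inhibitors and cofactors, 14 were higher in MEF than in the iPS lines and 4 lower, with a median of 2.33, where 21.6% of all genes were higher and 26.6% lower. The 3 with the largest differences were Thbs1 (7.41) and Thbs2 (5.45), which encode matrix thrombospondins, and Pcsk5 (5.11), a proprotein convertase. All 5 ADAMTS-like genes, which resemble ADAMTS enzymes without a protease domain, were higher in MEF, led by Adamtsl3 (4.72), Adamtsl2 (3.15) and Adamtsl1 (3.11). Of 18 other matrix-degrading enzymes 15 were higher and 1 lower, led by Adam12 (7.79), Ctsk (6.66) and Ctss (6.14), and among the proteoglycan substrates Acan (3.58) and Vcan (3.56) were higher and Ncan (−3.20) lower. The substrates also stood out by value in pre-iPS cells, where 3 of 4 were lower than in the iPS lines: Acan, the aggrecan gene, at −5.81 ± 0.28, Bcan at −2.98 ± 0.49 and Ncan at −2.49 ± 0.34.

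In pre-iPS cells 2 of the 22 activators, inhibitors and cofactors were higher than in the iPS lines and 4 lower (4.71% and 11.6% of all genes were), the largest being A2m (−3.04), Pcsk5 (−2.49) and Papln (1.23). Of the ADAMTS-like genes Adamtsl1 was higher (1.43), and of the other enzymes Ctss (1.69) and Htra3 (1.35) were higher and Adam19 (−1.63) lower. Between pre-iPS cells and MEF, 15 of the 22 cofactors were lower and 5 higher, the latter a share close to the 22.4% of all genes that were higher (20.9% were lower). All 5 ADAMTS-like genes were lower, 13 other enzymes were lower and 1 higher, and 3 substrates were lower. The largest of these differences were those of Acan (−9.40), Thbs1 (−8.54), Adam12 (−8.44), Pcsk5 (−7.60), Ctsk (−6.41) and Thbs2 (−6.06). The rNetrin-1 clones differed from 'control' in Papln, a papilin gene, by 1.79 ± 0.26, in Tll1, a tolloid-like enzyme, by −2.09 ± 0.18 and in Fap by 1.43 ± 0.30. Of all genes 0.990% were higher and 1.12% lower in that comparison, and with 1 'control' clone, treatment and clone cannot be told apart. Between clone 2 and clone 1 limma called 0 of the 49 listed genes, which is near the 0.966% of all genes called. At an unadjusted p under 0.05 there were 9, and other tools were not run. With passage A2m (−1.22 ± 0.17) and Sparc (−1.01 ± 0.06) fell.

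The 5 members under the filter were near the limit of detection everywhere. Mmp27 was at 7.04 and 5.30 normalised reads in MEF and had no read in the other 8 libraries, and Mmp8 was at 7.09 and 6.35 in MEF and at most 0.991 elsewhere. Mmp20, the enamel protease, reached 12.5 in pre-iPS cells at passage 25 and at most 1.05 in MEF. Mmp21 was at most 7.98 and Adamts13, which cleaves von Willebrand factor, at most 8.16. With no filter on low values, limma called Mmp8 and Mmp27 as higher and Mmp20 and Mmp21 as lower in MEF than in the iPS lines (adjusted p from 6.16e-05 to 0.00391), differences that rest on a few reads a library, and did not call Adamts13.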

How the data were processed

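The deposited table holds normalised read counts (signal) per gene, which the authors made with edgeR as pseudo-counts scaled to a common library size, after reads of 50 nt from TruSeq RNA libraries, which do not mark strand, were handled with CASAVA 1.8.2, FastQC, TopHat2 2.0.8b and HTSeq 0.5.3p9 on mm10, as the submitters' processing notes list; gene annotation and counting strand are not given in the sources used here. Pseudo-counts keep relative levels but are not whole reads. Whole reads, used only in count tests and to state depth, were recovered: 100% of values came within 0.1 of a whole read in the 8 pre-iPS and iPS libraries, 99.94% and 98.26% in MEF.

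Tests used limma 3.58.1 (trend) on log2(value + 1), genes at 10 or more in at least 2 libraries, 1 mean per line over 10 libraries. Passage was tested over 8 libraries with line as a block. Fold changes are on the log2(value + 1) scale, which understates those of low genes. Passage numbers pair the lines: passage deviations correlated between all 6 pairs of lines (0.235 to 0.504). Tests were checked on simulated data with independent libraries and a single spread. That check does not cover the closeness of the MEF libraries or the correlated passage deviations. Alternatives were edgeR 4.0.16 and DESeq2 1.42.0 on recovered reads, other pseudocounts, filters, scalings and sample sets, and leaving out each library. Levels per kb used exons of GENCODE M21, promoters RefSeq. The members and gene lists were chosen with earlier results of these data known. Named by rule were the Timp genes, the 6 called members with the largest increase and decrease whose libraries do not overlap in the MEF and pre-iPS comparisons, every called member of the others, and the highest per kb; other members were named after their values were seen.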

Additional observations from a re-analysis of the deposited data

Results flagged for a closer look

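For each tested member, the 6 iPS libraries and the 4 rNetrin-1 libraries were each searched for a library far from the rest by Dixon's test. Of 80 groups looked at over the members, 4 held such a library, and chance alone sets apart about 1 group in 20. Among the 6 iPS libraries, Adamts5 was at 87.9 normalised reads in rNetrin-1 clone 1 at passage 5, where the nearest other library was at 61.8. Adamts6 was at 335 in rNetrin-1 clone 1 at passage 25, where the nearest other library was at 193. Timp4 was at 10.3 in the same library, with the nearest other at 2.68, both among the 6 iPS libraries and among the 4 rNetrin-1 libraries. The 2 rNetrin-1 clones also differed in Adamts18, by 3.80 on the log2 scale in a test of the difference itself (limma, adjusted p 0.0401).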

How the results depend on the processing

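Of the 30 members called between MEF and the iPS lines, 29 were called in every alternative that tested them, Mmp3 being the exception. The counts ran from 26, with a mean of at least 50, which removes some called members, to 34 without a filter. Between pre-iPS cells and MEF 27 of 31 were called in every alternative that tested them (counts 27 to 34). Between pre-iPS and iPS cells 6 of 11 were called in each alternative that gave them a value, leaving out 1 library gave 8 to 14 calls, and the adjusted p alone, without the 2-fold limit, gave 17. In these 3 comparisons and in the others, every called member kept its direction in every alternative that gave it a value. Scaling to 4 housekeeping genes moved the median of all genes between MEF and the iPS lines from −0.087 to 0.3.

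Between the rNetrin-1 clones and 'control' the count of 1 became 2 with the adjusted p alone, 0 with only the lines compared, 3 with passage as a replicate block, 2 with DESeq2, and 0 to 1 with 1 library left out. Between clone 2 and clone 1 the count of 1 became 0 with a pseudocount of 0.5, with a mean of at least 50, with only the lines compared, with MEF averaged to 1 sample and with edgeR. It was 2 with the adjusted p alone, with the replicate block and with DESeq2, and 0 to 1 with 1 library left out, being 0 for each library except clone 2 at passage 5. For passage the count of 6 became 3 with a mean of at least 50, 10 with the adjusted p alone, 0 with no line block and 2 in the iPS lines alone. With 1 library left out it was 2 to 4, and Mmp3 and Mmp10 were called each time. The cause of these changes was not tested, beyond the smaller number of samples or genes that some alternatives hold.

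Among values that were not called, Timp3 changed sign between pre-iPS and iPS cells (−0.0913 to 0.0887 with 1 library left out) and with passage (−0.0514 in the iPS lines alone, and −0.0514 to 0.0779 with 1 library left out). Timp2 changed sign between the clones and 'control' (−0.5738 to 0.2003 with 1 library left out). Timp1 did so between clone 2 and clone 1 (−0.0139 scaled to housekeeping genes, and −0.2733 to 0.3599 with 1 library left out). Depth limits Adamts18, Mmp1a, Mmp1b, Mmp24, Timp4 and the 5 members under the filter, which hold few reads.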
